A study of Mus musculus with 43 samples.

Results

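The homeostatic microglia identity genes followed here were P2ry12, P2ry13, Gpr34, Cx3cr1, Csf1r, Siglech, Selplg, Tmem119, Olfml3 and Sall1. They were taken by symbol from the gene entries of the deposited tables, and make up 10 of 55804 gene entries. The tables come from RNA sequencing of mouse brain in a study of CDDO-2P-Im (2P-Im), a synthetic triterpenoid that induces the transcription factor NRF2. The 6-month cohort has 13 libraries of AppNLGF mice that took 30 µmol/kg of 2P-Im orally for 4 weeks with 3 doses a week, 11 of AppNLGF mice given vehicle and 4 of wild type mice given vehicle. AppNLGF mice are homozygous for a knock-in App allele with a humanised amyloid segment and familial mutations, so App stays under its own promoter. The 11-month cohort has 5 libraries of APP/TAU mice that took 2P-Im at that dose for 2 weeks, 5 of APP/TAU mice given vehicle and 5 of wild type mice given vehicle. APP/TAU mice carry transgenes for human APP V717I and human TAU P301L, and no source used here names their promoters. Whether the numbered replicates are separate animals is not stated, and p-values then measure only the spread between these libraries, which may be technical.

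Microglia are the resident macrophages of the brain. In the healthy brain they survey tissue and synapses, and this state is marked by receptors for nucleotides, chemokines and growth factors and by the transcription factor Sall1. Single-cell studies of mouse amyloid models are known for microglia around plaques that lower many of these genes while raising genes of lipid handling, phagocytosis and lysosomes. Brain tissue mixes all cell types, so a level here is the sum over every cell, and fewer microglia cannot be told apart from less RNA per microglial cell.

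All 10 genes were above the minimum mean of 1 TPM, the length-corrected and library-scaled abundance unit of the tables, in both cohorts, so all 10 were tested. The App entry averaged 433 ± 40.8 TPM in AppNLGF 2P-Im libraries (SD, n = 13), 438 ± 21.2 TPM in AppNLGF vehicle libraries (n = 11) and 469 ± 17.9 TPM in 6-month wild type libraries (n = 4). It averaged 904 ± 120 TPM in APP/TAU 2P-Im libraries and 955 ± 102 TPM in APP/TAU vehicle libraries, against 460 ± 70.8 TPM in 11-month wild type libraries (n = 5 each). The Mapt entry averaged 144 ± 21.6 TPM in APP/TAU 2P-Im libraries and 176 ± 26.5 TPM in APP/TAU vehicle libraries, against 125 ± 23.4 TPM in wild type. A single gene entry without a symbol, ENSMUSG00000118866, took 28.3 to 40.0% of the TPM of an AppNLGF cohort library and 15.5 to 34.5% of an APP/TAU cohort library. Each comparison is therefore given as deposited and after median-ratio scaling, which divides a library by its median ratio to the geometric mean of all tested genes. On deposited TPM the median gene of APP/TAU vehicle libraries stood 0.18 above wild type on the log2 scale, and that of APP/TAU 2P-Im libraries stood 0.19 below vehicle, so deposited differences in that cohort are read against those shifts. Xist, expressed in female cells, was above 10 TPM in 7 of 13 AppNLGF 2P-Im libraries and 5 of 11 AppNLGF vehicle libraries, and in 0 of 4 wild type libraries of that cohort.

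P2ry12 and P2ry13 are receptors for ADP, which P2ry12 uses to guide microglial processes towards injured cells. P2ry12 (ENSMUSG00000036353) lies on the minus strand at chr3:59216272-59262871 and P2ry13 (ENSMUSG00000036362) on the same strand at chr3:59207892-59210882, on GRCm38 with GENCODE M21 annotation. The 2 genes are 5389 bases apart and both lie within Med12l on the opposite strand. The 250 bases before the RefSeq start of each gene on GRCm38.p6 are shown because these neighbours encode both ADP receptors. For P2ry12 that start lies upstream of the GENCODE start. Their levels followed each other within groups of the AppNLGF cohort (Pearson r = 0.80), which also led to the choice. This is not particular to neighbours, as P2ry12 had r = 0.88 with Cx3cr1 and 0.87 with Gpr34, both on other chromosomes. In the APP/TAU cohort P2ry12 and P2ry13 had r = 0.41. A link between the windows and these levels was not tested. Capitals mark GAGGAA or AGGAAG, the cores bound by PU.1 and other ETS factors of myeloid cells, searched on both strands. The windows are chr3:59262986-59263235 for P2ry12 and chr3:59210883-59211132 for P2ry13, both read on the minus strand.
P2ry12: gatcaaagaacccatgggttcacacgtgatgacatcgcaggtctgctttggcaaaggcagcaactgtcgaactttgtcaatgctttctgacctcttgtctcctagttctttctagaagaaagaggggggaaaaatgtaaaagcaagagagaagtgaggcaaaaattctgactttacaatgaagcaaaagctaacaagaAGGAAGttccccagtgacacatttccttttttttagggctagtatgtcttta
P2ry13: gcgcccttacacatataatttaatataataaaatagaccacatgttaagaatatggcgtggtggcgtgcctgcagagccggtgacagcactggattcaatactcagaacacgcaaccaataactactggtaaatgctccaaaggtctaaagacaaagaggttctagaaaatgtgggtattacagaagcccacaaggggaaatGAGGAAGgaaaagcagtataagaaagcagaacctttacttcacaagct
The P2ry13 window held GAGGAA and AGGAAG as overlapping matches, and the P2ry12 window held AGGAAG. RefSeq windows were found for 6 of the 10 genes, with 8 windows in all: P2ry12, P2ry13, Cx3cr1, Siglech, Sall1 and Olfml3. GAGGAA was in 1 of these 8 windows, against 23.3% of 32851 promoter windows of all genes. AGGAAG, chosen after the windows had been read, was in 4 of the 8 windows (of P2ry12, P2ry13, Olfml3 and 1 window of Sall1), against 29.5% of all windows.

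In vehicle-treated AppNLGF brain the identity genes averaged above wild type. All 10 differences between AppNLGF vehicle and wild type libraries were above 0 on both scales, where 38.3% of all genes tested were above 0 on deposited TPM and 49.5% with median-ratio scaling. Differences are log2(TPM + 1) of the model minus wild type, with calls made where p adjusted over all genes tested was below 0.05. Their median was 0.32 on deposited TPM, against -0.026 for all genes, and 0.35 with median-ratio scaling, against -0.00088 for all genes. On deposited TPM 0 of the 10 were called, where 0.28% of genes were, and 5 had an unadjusted p below 0.05 where 4.16% of genes did. With median-ratio scaling Csf1r and Selplg rose and 0 fell, where 0.691% of genes were called and 0.554% were called higher, and 6 had an unadjusted p below 0.05 against 7.05% of genes. The summed TPM of the 10 genes ranged from 63.8 to 139 with a median of 118 in AppNLGF 2P-Im libraries and from 83.4 to 136 with a median of 123 in AppNLGF vehicle libraries, and was 93.8, 96.0, 95.5 and 88.5 in the 4 wild type libraries, so most but not all vehicle libraries lay above wild type. Astrocyte and endothelial marker means also stood higher in these libraries. The mean log2(TPM + 1) of 10 astrocyte markers after scaling ran from 5.96 to 6.27 in AppNLGF 2P-Im libraries and from 6.04 to 6.32 in AppNLGF vehicle libraries, against 5.90 to 5.98 in wild type, and that of 10 endothelial markers ran from 2.86 to 3.18 and from 2.80 to 2.95 in the same 2 groups, against 2.68 to 2.79 in wild type. Every vehicle library thus lay above wild type for both, with 1 of 10 astrocyte and 0 of 10 endothelial markers called. The scaled sum of choroid plexus markers ran from 9.45 to 766 TPM in 2P-Im libraries and from 7.11 to 664 TPM in vehicle libraries, against 481 to 698 TPM in wild type. The part of these cells in the identity gene differences was not tested.

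**Figure D1:**
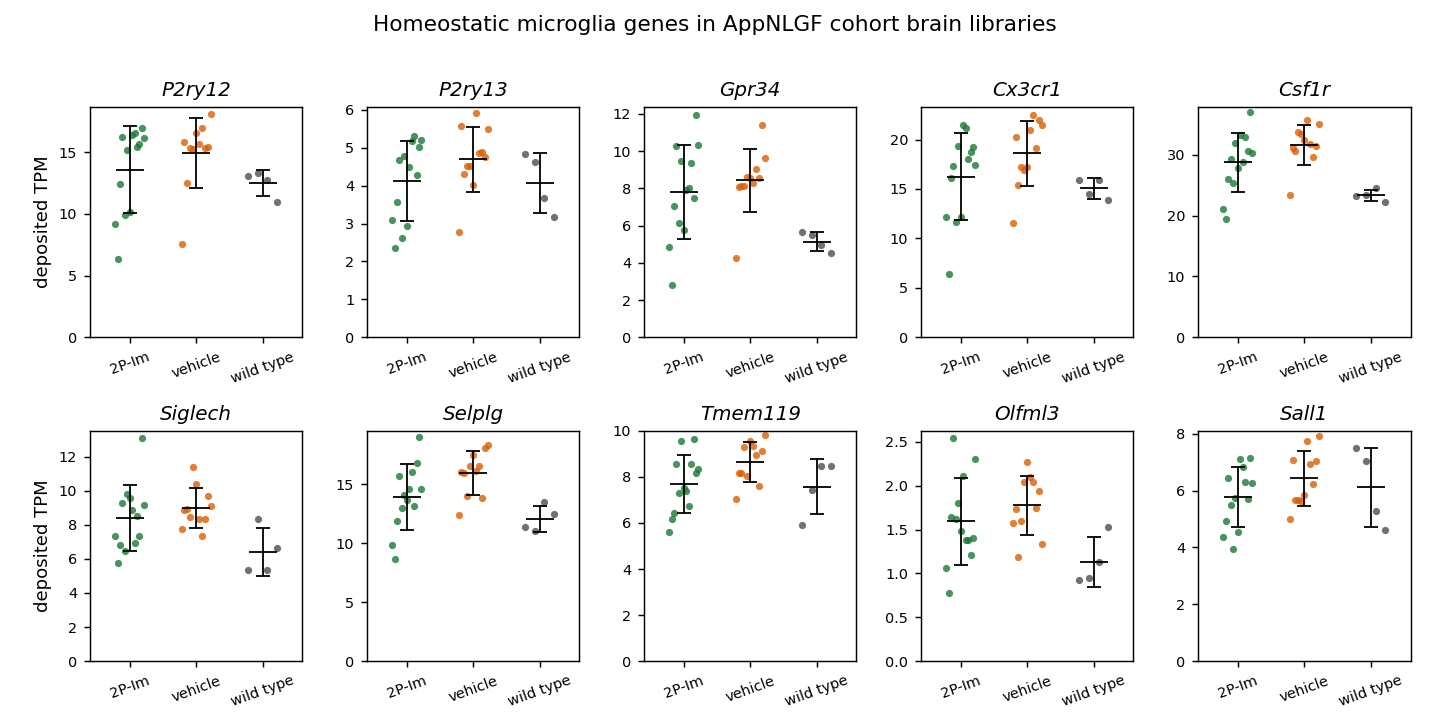
Deposited TPM of each of the 10 genes in every library of the 6-month cohort (dots), with the mean and SD of each group in black, for AppNLGF 2P-Im (n = 13), AppNLGF vehicle (n = 11) and wild type (n = 4). Csf1r reached 37.1 TPM in AppNLGF 2P-Im libraries and 35.7 TPM in AppNLGF vehicle libraries, against 24.6 TPM at most in wild type, while the Sall1 groups overlap throughout.

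Csf1r encodes the receptor for CSF1 and IL-34, on which microglia depend for survival. It lies on the plus strand at chr18:61100598-61132149 (ENSMUSG00000024621), overlapping Hmgxb3 on the opposite strand. Its TPM had a lowest value of 19.5, a median of 29.4 and a highest value of 37.1 in AppNLGF 2P-Im libraries, and 23.5, 31.9 and 35.7 in AppNLGF vehicle libraries. The 4 wild type libraries had 23.3, 23.4, 24.6 and 22.2 TPM. On this scale 11 of 13 2P-Im libraries and 10 of 11 vehicle libraries lay above every wild type library, and no gene of the 10 separated the groups in full (0.399% of genes did for vehicle and 0.155% for 2P-Im). After median-ratio scaling Csf1r averaged 28.9 ± 2.72 TPM in AppNLGF 2P-Im and 31.2 ± 3.26 TPM in AppNLGF vehicle libraries, against 22.5 ± 0.833 TPM in wild type (SD), and every AppNLGF library of both groups lay above every wild type library. Such separation above wild type held in 0.68% of genes for vehicle against wild type and in 0.614% for 2P-Im against wild type. For 2P-Im the margin was small, with a lowest scaled value of 23.32 TPM against a highest of 23.29 TPM in wild type. The lowest scaled vehicle value was 25.7 TPM. Csf1r rose by 0.45 ± 0.076 (SE) in AppNLGF vehicle against wild type libraries with this scaling (adjusted p = 0.000979), against 0.42 ± 0.115 on deposited TPM (adjusted p = 0.187). The call was kept when any 1 library was left out, with adjusted p from 0.000239 to 0.00953, and with a term for Xist (0.37 ± 0.063, adjusted p = 0.00157). It was lost when only replicate numbers 1 to 5 were used (0.49, adjusted p = 0.0531) and when the transcript entries of each gene were added to its gene entry (0.27, adjusted p = 0.54).

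Selplg encodes PSGL-1, a ligand of P-selectin, and lies on the minus strand at chr5:113818536-113832644 (ENSMUSG00000048163), 18019 bases from Tmem119. Its TPM was 8.65, 14.1 and 19.0 at lowest, median and highest in AppNLGF 2P-Im libraries, and 12.4, 16.1 and 18.4 in AppNLGF vehicle libraries. The wild type libraries had 11.4, 11.0, 13.5 and 12.4 TPM. In total 10 of 11 vehicle libraries were above every wild type library, and 2P-Im libraries spread over both ranges. Selplg rose by 0.40 ± 0.093 in vehicle libraries with median-ratio scaling (adjusted p = 0.0348), against 0.37 ± 0.128 on deposited TPM (adjusted p = 0.634). The call was lost without wild type replicate 1, 2 or 4 (adjusted p = 0.15, 0.255 and 0.072), and without vehicle replicate 2, 3, 5, 6, 10 or 11 (adjusted p from 0.0544 to 0.0588). It was also lost with a term for Xist (0.31, adjusted p = 0.128).

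Gpr34, a receptor of lysophosphatidylserine, lies on the plus strand at chrX:13632089-13640858 (ENSMUSG00000040229), within Cask on the opposite strand. It had the largest difference of the 10 genes between AppNLGF vehicle and wild type libraries, 0.60 ± 0.212 on deposited TPM (adjusted p = 0.664) and 0.62 ± 0.173 with median-ratio scaling (adjusted p = 0.133). Its TPM had a lowest value of 2.80, a median of 7.90 and a highest of 11.9 in AppNLGF 2P-Im libraries, and 4.24, 8.54 and 11.4 in AppNLGF vehicle libraries, against 5.64, 5.47, 4.94 and 4.51 in wild type. Of the vehicle libraries 10 of 11 lay above every wild type library, and vehicle replicate 1 lay below. Without that library the median-ratio difference was 0.69 (adjusted p = 0.0303), and without AppNLGF 2P-Im replicate 2 it was 0.62 (adjusted p = 0.0169). These fits held no term for Xist. Gpr34 lies on the X chromosome, and Xist was above 10 TPM in 5 of 11 vehicle libraries and 0 of 4 wild type libraries. With all libraries and a term for Xist, Gpr34 was not called.

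P2ry12 spanned 6.35 to 17.0 TPM with a median of 15.4 in AppNLGF 2P-Im libraries and 7.55 to 18.1 TPM with a median of 15.5 in AppNLGF vehicle libraries, and was 13.1, 13.3, 12.8 and 11.0 TPM in wild type. Of 11 vehicle libraries 9 lay above every wild type library and replicate 1 lay below all of them. The difference between vehicle and wild type was 0.24 ± 0.144 with median-ratio scaling (adjusted p = 0.803), with a 95% interval from -0.054 to 0.54. P2ry13 was 2.36, 4.50 and 5.31 TPM at lowest, median and highest in 2P-Im libraries, and 2.79, 4.77 and 5.90 TPM in vehicle libraries, against 4.83, 4.63, 3.66 and 3.17 TPM in wild type. All 3 groups overlapped, and P2ry13 differed by 0.19 ± 0.117 in vehicle libraries against wild type (adjusted p = 0.817).

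Cx3cr1 is the receptor for the neuronal chemokine fractalkine and lies on the minus strand at chr9:119901616-120069879 (ENSMUSG00000052336), a span that also holds Wdr48 and Ttc21a on the opposite strand and Gorasp1, Csrnp1 and Xirp1 on its own. Its TPM was 6.44, 17.4 and 21.5 at lowest, median and highest in AppNLGF 2P-Im libraries and 11.6, 19.1 and 22.5 in AppNLGF vehicle libraries, against 16.0, 14.5, 15.9 and 13.9 in wild type. Above every wild type library lay 9 of 11 vehicle libraries, with a difference of 0.30 ± 0.146 after scaling (adjusted p = 0.714). Siglech, a sialic acid-binding lectin that signals through the adaptor Tyrobp, lies on the plus strand at chr7:55768178-55778925 (ENSMUSG00000051504). It was 5.77, 8.52 and 13.1 TPM in 2P-Im libraries and 7.37, 8.85 and 11.4 TPM in vehicle libraries in the same order, against 5.34, 8.31, 5.36 and 6.62 TPM in wild type. Wild type replicate 2 stood among the AppNLGF libraries, and the scaled difference of vehicle against wild type was 0.46 ± 0.128 (adjusted p = 0.122).

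Tmem119 encodes a transmembrane protein used as a marker that separates microglia from other brain macrophages, and lies on the minus strand at chr5:113793729-113800516 (ENSMUSG00000054675). Its TPM was 5.62, 7.54 and 9.64 at lowest, median and highest in AppNLGF 2P-Im libraries and 7.04, 8.94 and 9.80 in AppNLGF vehicle libraries, against 5.93, 7.44, 8.47 and 8.46 in wild type. The groups overlapped, with a scaled difference of 0.20 ± 0.086 for vehicle against wild type (adjusted p = 0.609). Olfml3, a secreted olfactomedin-like protein, lies on the minus strand at chr3:103722222-103738001 (ENSMUSG00000027848) and was the lowest of the identity gene entries. It had 0.777, 1.48 and 2.54 TPM in 2P-Im libraries and 1.18, 1.74 and 2.27 TPM in vehicle libraries in the same order, against 0.920, 0.944, 1.13 and 1.53 TPM in wild type. A total of 9 of 11 vehicle libraries were above every wild type library, with a scaled difference of 0.39 ± 0.132 (adjusted p = 0.321).

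Sall1 is the transcription factor that holds microglia in their identity, and lies on the minus strand at chr8:89027235-89044162 (ENSMUSG00000031665). Its TPM was 3.94, 5.74 and 7.16 at lowest, median and highest in AppNLGF 2P-Im libraries and 4.99, 6.22 and 7.92 in AppNLGF vehicle libraries, against 7.50, 7.06, 5.29 and 4.60 in wild type. The wild type values spanned most of the vehicle range, and none of the vehicle libraries lay above every wild type library after scaling. Its difference of 0.098 ± 0.094 was the smallest of the 10 (adjusted p = 0.907).

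General microglial genes had a larger median difference in the same libraries. Of 16 genes expressed across microglia and related macrophages, 13 rose and 0 fell in AppNLGF vehicle against wild type libraries with median-ratio scaling, with a median of 0.74, and 9 rose on deposited TPM. Tyrobp, which is not among the 13, passed the minimum TPM only through AppNLGF libraries. Trem2, a lipid-sensing receptor of microglia, rose, at 20.8 ± 4.15 TPM in vehicle libraries against 7.07 ± 0.72 TPM in wild type. Of 25 plaque-associated genes, 23 passed the minimum TPM in this cohort and 19 in the APP/TAU cohort, and some passed only because AppNLGF libraries are high, so no count of their changes is given. Cst7, a cathepsin inhibitor of activated microglia, averaged 13.6 TPM in AppNLGF 2P-Im libraries and 15.0 TPM in vehicle libraries, against 0.194 TPM in wild type, and Ctsd, a lysosomal protease well expressed in wild type too, rose by 0.85 in vehicle libraries with scaling (adjusted p = 4.08e-07). Of 18 other homeostatic genes tested of 20, 4 rose and 0 fell with scaling, among them Fcrls, an Fc receptor-like gene of microglia (0.81). Of 15 ligands and signalling partners of the identity genes tested of 17, 1 rose, Tgfbr2, a receptor of TGF-β (0.52), and of 13 transcription factors tested of 15, 3 rose, Irf8 and Cebpa among them. These lists were chosen with earlier results known, so their counts are descriptions beside the 0.554% of all genes called higher.

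Measured against the mean of the general microglial genes, the identity genes sat lower in AppNLGF brain, but so did most genes. The mean was taken over 15 of the 16 genes, leaving out the adaptor Tyrobp after its values were seen, as its gene entry was listed at 0 in all 4 wild type libraries of that cohort and reached 30.2 TPM in AppNLGF 2P-Im libraries. The log2 level of P2ry12 minus that mean averaged 0.18 in AppNLGF 2P-Im libraries and 0.23 in AppNLGF vehicle libraries, against 0.72 in wild type. That of Sall1 averaged -0.90 and -0.85 in the same 2 groups, against -0.22 in wild type. Every vehicle library lay below every wild type library for 7 of the 10 genes, where 79.7% of all genes tested did so, and every 2P-Im library did for 6 of 10 against 55.4% of genes. These shares are near those of all genes and show nothing particular to the identity genes. In the APP/TAU cohort 0 of 10 did so in vehicle against wild type libraries, where 0.0512% of genes did.

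**Figure D2:**
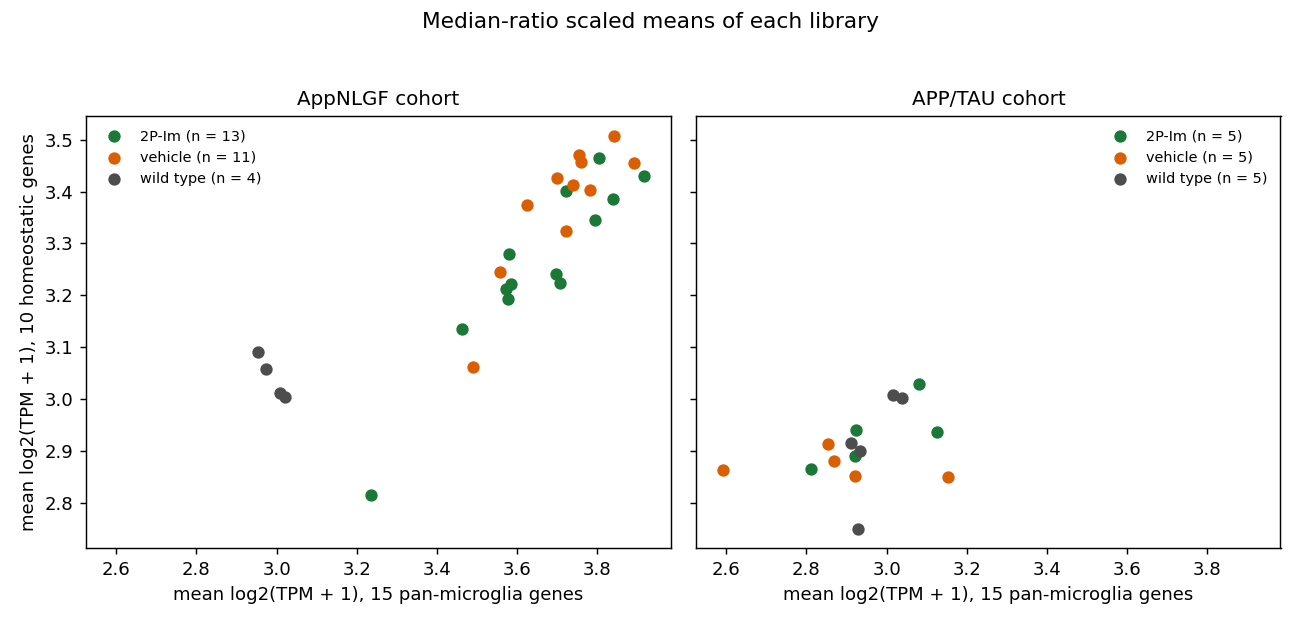
Mean log2(TPM + 1) of the 10 identity genes (vertical) against that of 15 general microglial genes (horizontal) in each library after median-ratio scaling, with the AppNLGF cohort on the left and the APP/TAU cohort on the right. AppNLGF 2P-Im and vehicle libraries lie to the right of all 4 wild type libraries, while their identity gene means run from 2.82 to 3.46 for 2P-Im and from 3.06 to 3.51 for vehicle. The wild type range is 3.00 to 3.09. Below it lies 2P-Im replicate 2, within it vehicle replicate 1, and above it the other AppNLGF libraries.

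No identity gene passed the threshold between treated and untreated AppNLGF brain. All 10 differences between AppNLGF 2P-Im and AppNLGF vehicle libraries were below 0 on both scales, from -0.22 for Cx3cr1 to -0.10 for Siglech on deposited TPM, where 33.4% of all genes were above 0, and from -0.18 to -0.066 with scaling, where 49% were above 0. On deposited TPM 0 of 10 were called, where 0.0536% of genes were, and 2 had an unadjusted p below 0.05 against 6.18% of genes. With median-ratio scaling 0 of 10 were called, where 0.286% of genes were, and 1 had an unadjusted p below 0.05 against 12.5% of genes. That gene was Selplg, at -0.16 ± 0.065 (adjusted p = 0.30). The 95% interval for P2ry12 ran from -0.32 to 0.096. Of the NRF2 targets listed, 4 of 12 rose with scaling in the same comparison, among them the glutathione transferase Gstm1, at 168 ± 33.5 TPM in 2P-Im and 121 ± 16.5 TPM in vehicle libraries. Nqo1, a quinone reductase, averaged 3.63 ± 0.824 TPM in 2P-Im and 2.39 ± 0.572 TPM in vehicle libraries, and the aldehyde oxidase Aox1 averaged 2.90 ± 0.716 TPM in 2P-Im and 1.76 ± 0.292 TPM in vehicle libraries.

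AppNLGF 2P-Im libraries set against wild type gave 1 called identity gene with median-ratio scaling and 0 on deposited TPM, where 0.715% of all genes were called with scaling (0.65% higher) and 0.262% on deposited TPM. Of the 10 differences, 8 were above 0 on deposited TPM, where 30% of genes were, and 9 with scaling, where 49% were. At an unadjusted p below 0.05 were 3 genes on deposited TPM and 5 with scaling, against 7.73% and 11.6% of all genes. Csf1r rose by 0.34 ± 0.074 with scaling (adjusted p = 0.0173) and differed by 0.27 ± 0.112 on deposited TPM (adjusted p = 0.586). The call was lost without any 1 of the 4 wild type libraries (adjusted p = 0.0511, 0.0844, 0.0531 and 0.0932) and with a term for Xist (adjusted p = 0.0761). Gpr34 differed by 0.51 ± 0.169 (adjusted p = 0.196), and without 2P-Im replicate 2 by 0.60 (adjusted p = 0.0213). Neither of these Gpr34 fits held a term for Xist. Both comparisons with wild type share the same 4 libraries, and both comparisons of vehicle share the same 11.

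**Figure D3:**
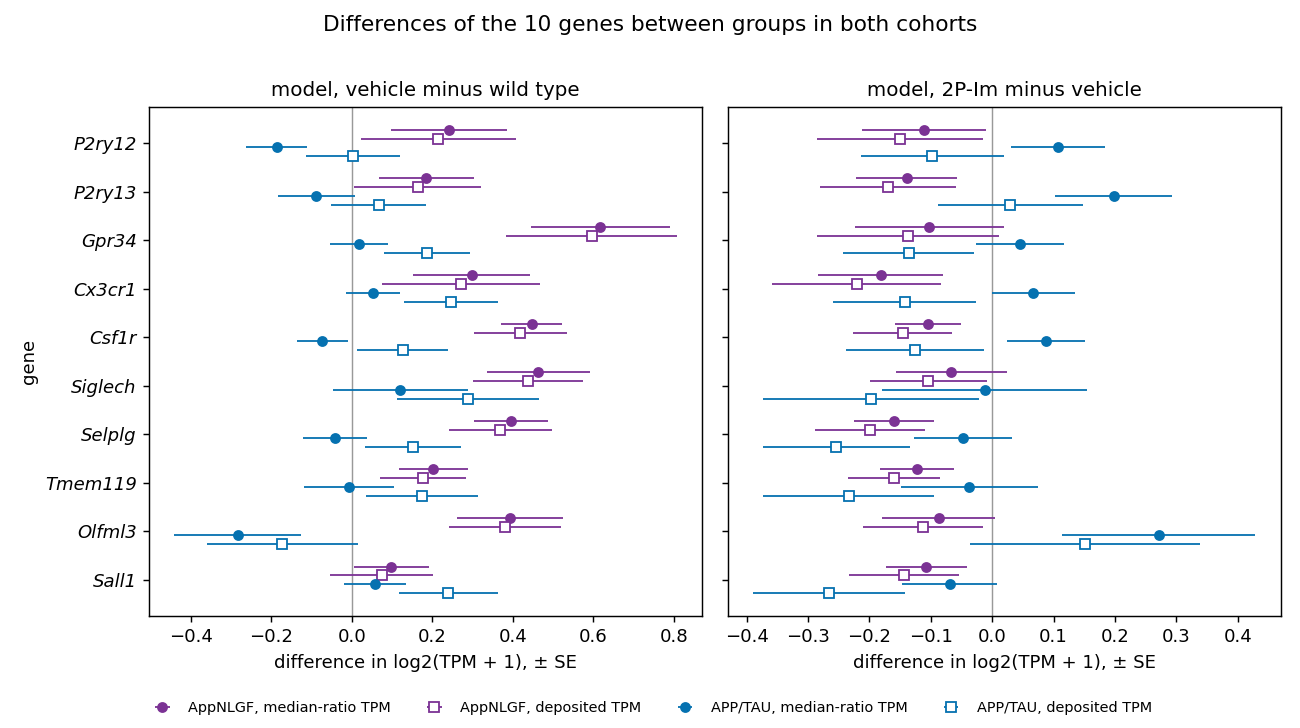
Differences of log2(TPM + 1) of the 10 genes with their SE, for model vehicle minus wild type in one panel and model 2P-Im minus model vehicle in the other, with AppNLGF in purple and APP/TAU in blue, circles for median-ratio scaling and open squares for deposited TPM. In the first panel the AppNLGF circles all lie above 0, from 0.098 for Sall1 to 0.62 for Gpr34, and the APP/TAU circles lie between -0.28 and 0.12.

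In APP/TAU brain none of the 10 genes changed past the threshold in any of the 3 comparisons. Csf1r had 19.1, 23.1, 16.8, 20.1 and 17.9 TPM in APP/TAU 2P-Im libraries and 25.2, 24.6, 18.5, 20.4 and 18.0 TPM in APP/TAU vehicle libraries, against 19.5, 17.5, 18.3, 23.1 and 18.6 TPM in 11-month wild type. The ranges of all 3 groups overlapped. P2ry12 had 9.78, 10.9, 9.11, 11.2 and 10.2 TPM in 2P-Im libraries and 10.4, 11.7, 10.8, 12.3 and 9.90 TPM in vehicle libraries, against 11.5, 8.36, 12.7, 13.9 and 9.31 TPM in wild type, whose values enclosed those of both other groups. Selplg had 10.0, 10.4, 9.21, 8.99 and 8.53 TPM in 2P-Im libraries and 11.0, 12.7, 9.81, 15.0 and 9.29 TPM in vehicle libraries, against 9.37, 10.1, 9.59, 12.8 and 9.33 TPM in wild type. The highest Selplg value lay in a vehicle library and the 2P-Im libraries lay towards the low end.

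Between APP/TAU vehicle and wild type libraries, 9 of 10 differences were above 0 on deposited TPM, where 90.1% of all genes were, and 4 of 10 were above 0 with scaling, where 49.2% of genes were. Called were 0 of 10 on both scales, where 0.0227% of genes were called on deposited TPM and 0.0284% with scaling, and 0 and 1 had an unadjusted p below 0.05 on the 2 scales, against 23.8% and 14.2% of genes. The exception was P2ry12, at -0.19 ± 0.076 with scaling (adjusted p = 0.29) and 0.0029 ± 0.117 on deposited TPM. Olfml3 differed by -0.28 ± 0.157 with scaling (adjusted p = 0.424), with 1.34, 1.75, 0.867, 1.03 and 1.14 TPM in 2P-Im libraries and 0.603, 1.58, 0.491, 1.58 and 0.945 TPM in vehicle libraries, against 1.73, 0.723, 1.40, 1.20 and 1.27 TPM in wild type. The groups overlapped for this gene too.

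Between APP/TAU 2P-Im and APP/TAU vehicle libraries, differences ran from -0.27 for Sall1 to 0.15 for Olfml3 on deposited TPM, with a median of -0.14 where that of all genes was -0.19, and from -0.069 to 0.27 with scaling, with a median of 0.056. Above 0 were 2 of 10 on deposited TPM, where 9.8% of genes were, and 6 of 10 with scaling, where 51% were. Called were 0 of 10 on both scales, where 0% of genes were called on deposited TPM and 0.0114% with scaling, and 2 and 0 had an unadjusted p below 0.05 on the 2 scales, against 26.8% and 8.84% of genes. Sall1 had 6.48, 7.00, 5.26, 6.40 and 5.92 TPM in 2P-Im libraries and 7.17, 9.16, 6.32, 8.42 and 7.43 TPM in vehicle libraries, against 5.82, 5.47, 6.81, 8.68 and 5.30 TPM in wild type. Of the 2P-Im libraries 2 lay below every vehicle library, and the Sall1 difference was -0.27 ± 0.123 on deposited TPM (adjusted p = 0.183) and -0.069 ± 0.077 with scaling (adjusted p = 0.831). P2ry13 was the nearest to a call with scaling, at 0.20 ± 0.095 (adjusted p = 0.572), with 2.75, 3.33, 3.12, 3.51 and 3.12 TPM in 2P-Im libraries and 3.62, 3.01, 3.17, 3.29 and 2.39 TPM in vehicle libraries, and 4 of 5 scaled 2P-Im values lay above every vehicle value. APP/TAU 2P-Im libraries set against wild type gave 0 called on both scales, where 0.0227% of genes were called on deposited TPM and 0.0284% with scaling, and 0 of 10 had an unadjusted p below 0.05, against 2.16% and 7.83% of genes. Above 0 were 4 of 10 on deposited TPM and 5 of 10 with scaling, against 45.4% and 50.7% of genes.

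**Figure D4:**
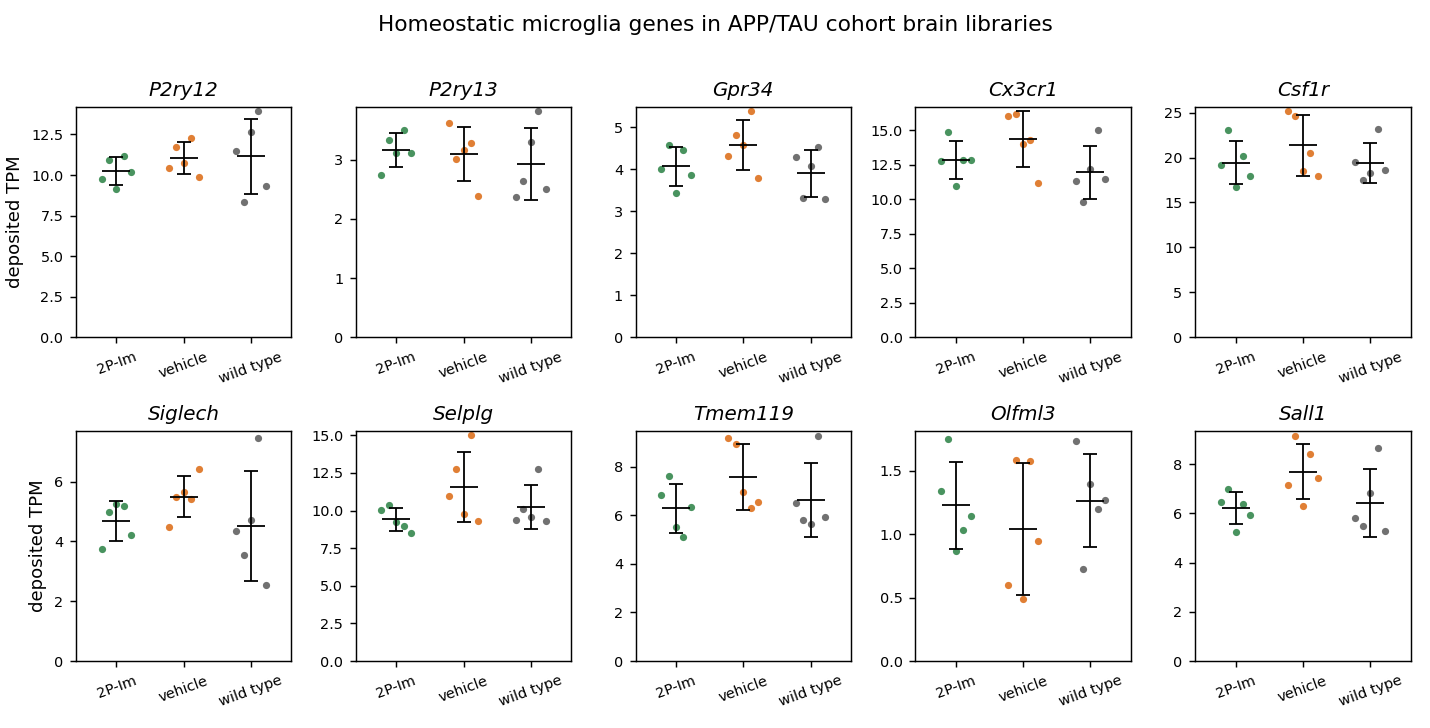
Deposited TPM of each of the 10 genes in every library of the 11-month cohort (dots), with the mean and SD of each group in black, for APP/TAU 2P-Im, APP/TAU vehicle and wild type (n = 5 each). The ranges of the 3 groups overlap for Csf1r, P2ry12, Selplg and Sall1, and wild type replicate 4 is the highest of its group for Tmem119 at 9.28 TPM.

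The remaining genes of the APP/TAU cohort overlapped between all 3 groups. Tmem119 ranged from 5.12 to 7.62 TPM in 2P-Im libraries and from 6.32 to 9.18 TPM in vehicle libraries, against 5.64 to 9.28 TPM in wild type, where replicate 4 alone was above 6.49 TPM. Cx3cr1 ranged from 10.9 to 14.9 TPM in 2P-Im libraries and from 11.2 to 16.2 TPM in vehicle libraries, against 9.81 to 15.0 TPM in wild type. Gpr34 ranged from 3.43 to 4.59 TPM in 2P-Im libraries and from 3.79 to 5.39 TPM in vehicle libraries, against 3.30 to 4.52 TPM in wild type. Siglech ranged from 3.74 to 5.26 TPM in 2P-Im libraries and from 4.50 to 6.42 TPM in vehicle libraries, against 2.54 to 7.46 TPM in wild type. The wild type spread of Siglech was the widest of the 3 groups.

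The difference between the cohorts was itself tested, as the APP/TAU vehicle difference from wild type minus the AppNLGF one, over 16418 genes. Csf1r was called, at -0.52 ± 0.105 with median-ratio scaling (adjusted p = 0.00846), where 0.53% of genes were called, and was -0.29 ± 0.165 on deposited TPM (adjusted p = 0.298), where 0.177% were. The other 9 genes were not called, with Olfml3 at -0.68 ± 0.199 (adjusted p = 0.132), Gpr34 at -0.60 ± 0.219 (adjusted p = 0.257) and Selplg at -0.44 ± 0.129 (adjusted p = 0.134). The cohorts differ in model, age and length of dosing, which cannot be told apart. Only the AppNLGF table lists transcripts apart from gene entries, so a gene entry may not cover the same reads in both cohorts. The cohort difference was not run with transcripts added. For 2P-Im against vehicle the cohort difference was called for 0 of 10 genes on both scales, where 0.134% of genes were called on deposited TPM and 0.0731% with scaling. The nearest was P2ry13, at 0.34 ± 0.140 with scaling (adjusted p = 0.326). For 2P-Im against wild type it was called for 0 of 10 genes too, where 0.0244% of genes were called on deposited TPM and 0.146% with scaling, with Csf1r at -0.33 ± 0.104 with scaling (adjusted p = 0.37).

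TPM divides by transcript length, so levels of gene entries can be ordered, without the transcripts that the AppNLGF table lists separately. Csf1r was the highest and Cx3cr1 the next in mean deposited TPM in all 6 groups, and P2ry13 and Olfml3 were the ninth and the lowest. With its transcript P2ry12-205 added, P2ry12 averaged 23.1 TPM in AppNLGF 2P-Im, 24.9 TPM in AppNLGF vehicle and 24.8 TPM in wild type libraries, above the Cx3cr1 gene entry at 16.2, 18.6 and 15.1 TPM in the same groups. The ranges of Csf1r and Cx3cr1 did not overlap in 5 of the 6 groups, and overlapped in AppNLGF 2P-Im libraries. P2ry12 and Selplg took the places after Cx3cr1 and overlapped each other in all 6 groups. Tmem119, Siglech, Gpr34 and Sall1 took the fifth to eighth places in changing order.

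The AppNLGF table also lists single transcripts, and a short P2ry12 transcript was lower than wild type where its gene entry was higher, with neither difference called. P2ry12-205, of 619 bases and 2 exons at chr3:59217905-59220200, had 6.49, 9.54 and 12.7 TPM at lowest, median and highest in AppNLGF 2P-Im libraries and 5.63, 10.4 and 12.7 TPM in AppNLGF vehicle libraries, against 9.47 to 13.9 TPM in wild type. It differed by -0.28 ± 0.143 in vehicle against wild type libraries with scaling (p = 0.0605) and by -0.31 in 2P-Im against wild type libraries (p = 0.0339, adjusted p = 0.435), where 0.0423% and 0.0343% of all gene and transcript entries were called lower in the 2 comparisons. It made up 41.6 ± 5.11% of the summed P2ry12 TPM in 2P-Im libraries and 39.8 ± 5.91% in vehicle libraries, against 49.3 ± 4.52% in wild type (SD). The sum of the gene entry and this transcript averaged 23.1 ± 5.09 TPM in 2P-Im libraries and 24.9 ± 4.49 TPM in vehicle libraries, against 24.8 ± 2.47 TPM in wild type. Csf1r-205, of 416 bases and 3 exons, averaged 17.7 ± 6.35 TPM in 2P-Im libraries and 15.8 ± 5.98 TPM in vehicle libraries, against 16.5 ± 3.86 TPM in wild type, and these ranges overlapped. It made up 37.4 ± 8.91% of its sum with the Csf1r gene entry in 2P-Im libraries and 32.4 ± 7.81% in vehicle libraries. The wild type share was 41.0 ± 5.56%, and the ranges of these shares overlapped too. No source used here states how reads were divided between gene and transcript entries, and with the transcripts added 0 identity genes were called.

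**Figure D5:**
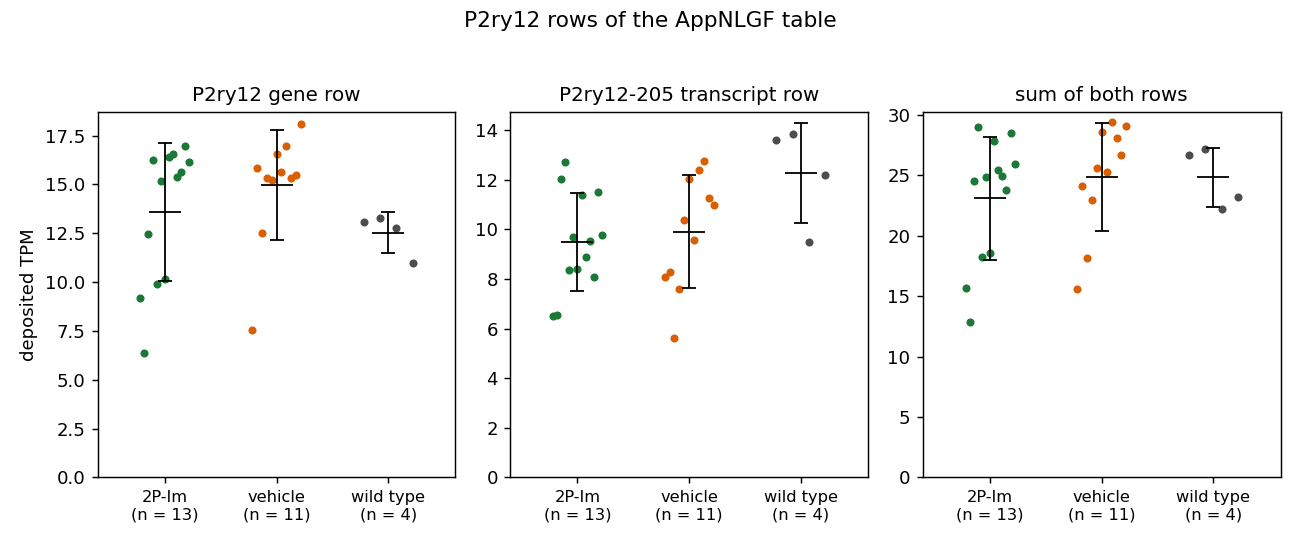
Deposited TPM of the P2ry12 gene entry, of the P2ry12-205 transcript entry and of their sum in each library of the 6-month cohort (dots), with the mean and SD of each group in black, for AppNLGF 2P-Im (n = 13), AppNLGF vehicle (n = 11) and wild type (n = 4). The sums average 23.1, 24.9 and 24.8 TPM in these groups and overlap.

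Within groups of the AppNLGF cohort, some of the receptors followed each other from library to library and others did not. Over 28 libraries, with each value taken relative to its group, 39 of 45 pairs of genes had a positive Pearson r after scaling, with a median of 0.37. P2ry12 had r = 0.88 with Cx3cr1 (Spearman rho = 0.67, r = 0.70 without the 2 farthest libraries), r = 0.87 with Gpr34 and r = 0.80 with P2ry13. Csf1r with Cx3cr1 had r = 0.51, or 0.035 without the 2 farthest libraries, and Csf1r with P2ry13 had 0.48, or 0.17 without them. Siglech had r = 0.0075 with Cx3cr1 (-0.33 without the 2 farthest), 0.097 with P2ry13 and 0.17 with P2ry12. Tmem119 with Sall1 had the lowest value of the 45, -0.46. In the APP/TAU cohort 31 of 45 pairs were positive over 15 libraries, with a median of 0.16, and P2ry12 had r = 0.41 with P2ry13, or 0.074 without the 2 farthest libraries. These are descriptions, as the values share a library, its composition and its scaling.

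Among the genes outside the 10 whose scaled levels were most like the mean of the identity genes within the groups of the AppNLGF cohort were Lcp1 (r = 0.86), Cst7 (0.83), Ly86 (0.81), Pde5a (0.81), Cxxc5 (0.80), Laptm5 (0.80), Arih1 (0.80), Fcer1g (0.78) and Serpinb1a (0.78), over 28 libraries. Without the 2 farthest libraries these r were 0.64, 0.69, 0.56, 0.54, 0.60, 0.62, 0.58, 0.69 and 0.60 in the same order. Of the 10 nearest, 5 belong to a microglia list used here. Cst7 is among them, and passed the minimum TPM only through AppNLGF libraries. In the APP/TAU cohort the nearest genes were Mllt11 (0.89), Pfkp (0.88) and Ddr2 (0.88) over 15 libraries, or 0.89, 0.78 and 0.73 without the 2 farthest. None of the 10 nearest there belongs to a microglia list used here. AppNLGF 2P-Im replicate 2 was the lowest of its group after scaling for 7 of the 10 genes and AppNLGF vehicle replicate 1 for 6. Leaving out 2P-Im replicates 1 and 2 together gave Csf1r 0.42 for vehicle against wild type on deposited TPM (adjusted p = 0.0135).

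After scaling, markers of other brain macrophages summed to 5.51 to 12.1 TPM over both cohorts. Those of monocytes, neutrophils and lymphocytes summed to 3.45 to 14.9 TPM. The summed scaled TPM of border-associated macrophage markers ran from 5.51 to 9.26 in AppNLGF 2P-Im libraries and from 5.86 to 9.94 in AppNLGF vehicle libraries, against 5.82 to 7.84 in wild type. That of monocyte, neutrophil and lymphocyte markers ran from 3.98 to 7.38 and from 3.50 to 7.50 in the same 2 groups, against 4.75 to 7.75 in wild type. Ly6g was listed at 0 in the AppNLGF cohort, and the medians of Ccr2 and Cd3e were below 0.1 TPM. In the APP/TAU cohort the border-associated sum ran from 8.39 to 12.1 in 2P-Im libraries and from 7.65 to 9.92 in vehicle libraries, against 7.91 to 11.5 in wild type. In the APP/TAU cohort the sum for monocyte, neutrophil and lymphocyte markers ran from 5.22 to 14.9 in 2P-Im libraries and from 3.45 to 13.2 in vehicle libraries, against 4.30 to 8.20 in wild type. Of 12 immediate early genes, which neurons switch on within minutes of activity, 9 fell and 0 rose in AppNLGF vehicle against wild type libraries with scaling (median -1.17), and 7 rose in 2P-Im against vehicle libraries. Of all genes, 0.691% and 0.286% were called, higher or lower, in these 2 comparisons. Red blood cell markers had a median difference of -1.35 in AppNLGF vehicle against wild type libraries, with 0 of 5 called. The part of these in the differences was not tested.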

How the data were processed

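Total RNA of mouse brain was extracted with Sepasol and sequenced from MGIEasy directional libraries, per the labels' protocols. The authors deposited TPM estimated with Salmon and the build GRCm38 (mm10), going by the submitters' processing notes. No source used here gives the version, annotation release or strand setting. TPM keep no depth, so reads behind a value are unknown and no counting interval is given. Libraries were grouped by their titles. Tests covered genes of mean TPM 1 or more, 16776 for AppNLGF and 17592 for APP/TAU, as log2(TPM + 1), which understates changes of low genes. Limma 3.58.1 in R 4.3.3 (moderated with a trend, two-sided) fitted the 3 groups of each cohort together, and p was adjusted over all genes (Benjamini-Hochberg) and called below 0.05. It was also run on simulated data with independent noise for each gene and no shift shared by a library. That run therefore says nothing about such shifts in these libraries. Values were read and drawn with pandas 2.3.3, NumPy 2.4.6, SciPy 1.17.1 and matplotlib 3.10.9 in Python 3.11.15, with version 1.17.8 of the R package data.table. Median-ratio scaling was run in parallel. Gene positions are from GENCODE M21 and promoters from RefSeq.

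The members, lists and tests were chosen with earlier results of these data known. The genes named are the 10 identity genes and their transcripts, up to 4 genes of each other list with the smallest p, the check genes App, Mapt, Nqo1, Gstm1 and Aox1, and the 10 genes most like the identity gene mean in each table, of which some are not reported here. Alternatives were quantile normalization, TPM rescaled without mitochondrial and the 20 most abundant genes, 0.1 as pseudocount, a minimum TPM of 5 or none, robust moderation, only the 2 groups compared, the replicate block, a term for Xist, replicate numbers 1 to 5 as a term or alone, leaving out libraries, and transcripts added to the gene, the last chosen after seeing the data.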

Additional observations from a re-analysis of the deposited data

Results flagged for a closer look

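Tmem119 in 11-month wild type replicate 4 had 9.28 TPM, far above the other 4 libraries of its group. Selplg in the same library had 12.8 TPM, likewise apart from the others. Both are deposited values. After median-ratio scaling Tmem119 in that library was 8.02 TPM, still the highest of its group. The highest scaled Selplg value of the group, 12.4 TPM, lay in replicate 2. The flagged values come from 2 of 40 groups of libraries tested this way, and chance gives about 1 in 20. As both lie in the same library, they are not independent of each other. The Csf1r difference of APP/TAU vehicle from wild type was below that of AppNLGF vehicle from wild type by the test of the difference itself, at -0.52 with median-ratio scaling.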

How the results depend on the processing

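The number of identity genes higher in AppNLGF vehicle than in wild type libraries was 0 on deposited TPM, 2 with median-ratio scaling, quantile normalization or TPM rescaled without mitochondrial and the 20 most abundant genes, and 1 with only the 2 groups compared or without both AppNLGF 2P-Im libraries 1 and 2. From the median-ratio count of 2 it was 1 with no minimum TPM, the replicate block, a term for Xist or a term for replicate numbers 1 to 5, and 0 with only replicate numbers 1 to 5 or with transcripts added. Leaving out 1 library gave 1 to 3. For AppNLGF 2P-Im against wild type the count was 0 on deposited TPM and 1 with median-ratio scaling, quantile normalization or rescaled TPM. From the median-ratio count of 1 it was 0 with the replicate block, a term for Xist, a term for replicate numbers 1 to 5, only those numbers, or transcripts added, 2 without both 2P-Im libraries 1 and 2, and 0 to 2 when 1 library was left out. For the other comparisons within a cohort the count of called identity genes was 0 under each alternative run, and no difference past the threshold reversed. The Csf1r difference between cohorts, in vehicle against wild type libraries with median-ratio scaling, kept its call with pseudocount 0.1, minimum TPM 5, no minimum TPM and robust moderation (adjusted p 0.00532 to 0.0130), and had no call on deposited TPM. That difference was not run with transcripts added, and only the AppNLGF table lists transcripts. Adding transcripts was chosen after seeing the data. The Xist term could not be fitted in the APP/TAU cohort, where no library was above 10 TPM, and replicate numbers 6 and above hold no wild type library.

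With the replicate block, Csf1r in AppNLGF vehicle against wild type kept its call (0.41, adjusted p = 0.0203). Same-numbered libraries deviated together by r of -0.058 to 0.087 in the APP/TAU cohort and -0.081 to 0.118 in the AppNLGF cohort. Libraries of unlike number were not compared, so these values cannot show whether same-numbered libraries were paired. The titles state no pairing, and libraries were treated as unpaired except in the replicate block. Depth is unknown, which leaves the precision of low genes such as Olfml3 to the spread between libraries.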
